A study of Mus musculus with 12 samples.

Results

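The genes of the proteasome were followed through cortical homogenate, tagged neuronal ribosomes, a synaptic gradient band and the tagged ribosomes of that band. Members were the rows of the count files whose Ensembl identifier belongs to a protein-coding mouse gene with a symbol starting with Psma, Psmb, Psmc, Psmd, Psme, Psmf or Psmg. Of 29879 rows, 50 met this rule, and 47 of the 50 passed the filter on low counts. The 3 that did not pass were Psma8, an alpha subunit of the testis, with 0 to 2 counts per library, Psmb11, the catalytic subunit of the thymic cortex, with 0 to 6, and Psme2b, a close copy of the activator gene Psme2, with 0 to 3. The symbol rule also took in Psmc3ip, which encodes a protein of meiotic recombination and no part of the proteasome, so that 49 of the 50 are proteasome genes.

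The proteasome is the protease that degrades proteins marked with ubiquitin. Its 20S core is a barrel of outer alpha rings, which gate the entrance, and inner beta rings, which hold the catalytic sites, and its 19S regulatory particle binds, unfolds and deubiquitinates the substrates. Psmc genes encode the ATPases of the 19S base, Psmd genes its other base and lid subunits and 3 base assembly chaperones, Psme genes other activators of the core, Psmf1 an inhibitor and Psmg genes the chaperones that assemble the core. In neurons, proteasomes work in the cell body, in dendrites and at synapses, where protein turnover accompanies synaptic plasticity.

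Per the labels, cortex from mice of the SNAP25 bacTRAP line, taken at postnatal day 21, gave all 12 libraries, and no other genotype or treatment was included. In such a line a ribosomal protein carrying green fluorescent protein is driven by the regulatory sequence of Snap25, a gene of neurons, so that the ribosomes of these cells can be captured with an antibody. Each of 4 groups had 3 libraries. SynapTRAP is the ribosome capture from the synaptic band and TRAP that from the homogenate. SNF is the band itself, taken from a gradient of sucrose and Percoll without capture, and WCH is the whole cortex homogenate. The design sets the captures against their inputs (TRAP against WCH, SynapTRAP against SNF) and the band against the homogenate (SNF against WCH, SynapTRAP against TRAP). Nothing in the labels says that the replicates were separate animals, so p-values measure only the spread between these libraries.

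Libraries held 4368881 to 14335089 gene counts, of which the mitochondrial genome took 20.4% to 63.3% in SynapTRAP, 0.930% to 5.43% in TRAP, 82.2% to 87.3% in SNF and 33.6% to 50.9% in WCH. The members together had 4931 to 12878 counts per SynapTRAP library, 14407 to 20819 per TRAP library, 2410 to 2903 per SNF library and 11032 to 14217 per WCH library, so the band input had the fewest counts behind its values. All 12 neuronal markers examined were detected in every library, as were all 10 markers each of astrocytes, oligodendrocytes and microglia. Markers of glia differed in level between the groups. The summed level of 10 astrocyte markers, in CPM (counts per 1000000 counts of the library size as scaled by the trimmed mean of M-values), was 8946 to 15399 in SynapTRAP, 571 to 1331 in TRAP, 13071 to 18177 in SNF and 2153 to 2711 in WCH. The sum of 10 oligodendrocyte markers was 8680 to 21551 CPM in SynapTRAP, 512 to 7077 in TRAP, 7015 to 9278 in SNF and 2570 to 3320 in WCH. That of 12 neuronal markers was 5355 to 9784 CPM in SynapTRAP, 9755 to 14118 in TRAP, 8837 to 10363 in SNF and 9382 to 10088 in WCH. Whether this mixture of cells has a part in the differences described here was not tested, and fewer cells of a type and less RNA per cell cannot be told apart.

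Summed over its genes, the 20S core was highest in TRAP. The 14 tested alpha and beta genes summed to 377, 341 and 259 CPM in SynapTRAP, 539, 488 and 659 CPM in TRAP, 238, 264 and 234 CPM in SNF and 286, 334 and 356 CPM in WCH. All 3 TRAP libraries lay above the other 9, and the SNF libraries lay below the WCH libraries, while SynapTRAP overlapped both SNF and WCH. The 17 genes of the 19S particle had the same arrangement, with 464, 508 and 347 CPM in SynapTRAP, 697, 636 and 784 CPM in TRAP, 315, 354 and 337 CPM in SNF and 420, 452 and 484 CPM in WCH. In these sums SynapTRAP replicate 3, the capture library with the most mitochondrial RNA, was the lowest of its group.

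**Figure D1:**
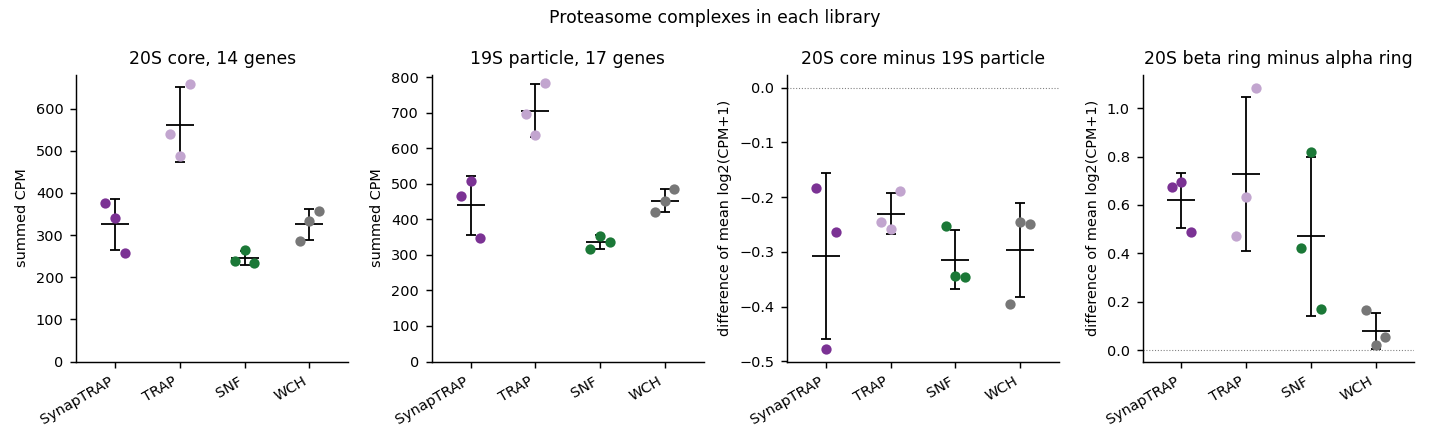
Points are the 3 libraries of each group, the long dash is the group mean and the bar its SD. The first panels give the summed CPM of the 14 core genes and of the 17 genes of the 19S particle, with all TRAP libraries above the rest. The other panels give differences of mean log2(CPM + 1): core minus 19S, where the groups overlap, and beta minus alpha ring, where the WCH libraries are the lowest.

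In the balance between the core and the 19S particle the groups overlapped. The mean log2(CPM + 1) of the core minus that of the 19S particle was -0.18, -0.48 and -0.26 in SynapTRAP, -0.24, -0.26 and -0.19 in TRAP, -0.25, -0.34 and -0.35 in SNF and -0.40, -0.25 and -0.25 in WCH. The balance within the core had another arrangement. Beta minus alpha genes came to 0.68, 0.70 and 0.49 in SynapTRAP, 0.47, 0.63 and 1.09 in TRAP, 0.42, 0.82 and 0.17 in SNF and 0.16, 0.02 and 0.06 in WCH. The WCH libraries were the lowest of the 12 on this measure, although the lowest SNF library was next to them, and the other groups overlapped. These are descriptions of a fixed set of genes and were not tested.

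In tagged ribosomes of the homogenate, proteasome genes were mostly higher than in the homogenate itself. In the comparison of TRAP with WCH, 19 of the 47 tested members (40.4%) rose, where 11.1% of all 13404 genes tested did, and 1 fell, where 10.9% of all genes did (edgeR quasi-likelihood test with Benjamini-Hochberg adjustment over all genes, adjusted p under 0.05). The median log2 fold change of the members was 0.54, against -0.01 for all genes. Every TRAP library was above every WCH library for 29 members, against 20.6% of all genes, and below for 2 members, against 22.5% of all genes. By role, 6 of 7 constitutive beta genes, 1 of 7 alpha genes, 4 of 6 base ATPase genes, 2 of 3 other base genes, 3 of 8 lid genes and none of the 3 base chaperone genes rose.

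The beta ring carried the highest changes of the core, with a median log2 fold change of 1.16 over its 7 genes, against 0.35 over the 7 alpha genes. Psmb3, a structural beta subunit (chromosome 11, 97703399 to 97713500, plus strand of GRCm38), had 14.4, 17 and 18.1 CPM in the TRAP libraries, against 5.87, 7.57 and 7.15 CPM in the WCH libraries. Its lowest TRAP library was above all WCH libraries, and the log2 fold change was 1.26 (± 0.259 SE, adjusted p = 0.00194 in edgeR). Psmb5, the chymotrypsin-like catalytic subunit, had 18.1, 15.7 and 28.4 CPM in TRAP and 7.64, 8.11 and 11.4 CPM in WCH, a log2 fold change of 1.20 (± 0.285 SE, adjusted p = 0.00516 in edgeR). Psmb6, the caspase-like catalytic subunit, had 55.9, 53.2 and 110.0 CPM in TRAP and 31.1, 32.8 and 32.8 CPM in WCH, a log2 fold change of 1.18 (± 0.266 SE, adjusted p = 0.00375 in edgeR). TRAP replicate 3 was the highest library for both catalytic genes, and without it the log2 fold change of Psmb6 was 0.79 (edgeR adjusted p = 0.0345). Psmb7, the trypsin-like catalytic subunit, had 52.3, 55.5 and 72.6 CPM in TRAP and 26.3, 30.4 and 35.2 CPM in WCH, with no overlap and a log2 fold change of 0.97 (± 0.222 SE, adjusted p = 0.00392 in edgeR). Psmb1 and Psmb4, structural subunits, also rose, by 0.92 and 1.16 on the log2 scale. Psmb2 was the beta gene without a call, with overlapping groups and a log2 fold change of 0.65 (± 0.25 SE, adjusted p = 0.065 in edgeR).

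The alpha gene that rose was Psma7, the alpha gene with the most reads, at 77.9, 68.6 and 71.8 CPM in TRAP, against 34.1, 41.8 and 40.3 CPM in WCH (log2 fold change 0.91 ± 0.209 SE, adjusted p = 0.00417 in edgeR). Its groups stood well apart. Psma1, Psma2, Psma3, Psma4, Psma5 and Psma6 had log2 fold changes of -0.17 to 0.54 that did not pass the test. Psma2 and Psma4 were nevertheless above in all 3 TRAP libraries.

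In the 19S particle the changes were spread over base and lid. Psmc5, an ATPase of the base, had 63.3, 70.0 and 102 CPM in TRAP, against 36.7, 43.9 and 38.9 CPM in WCH, without overlap (log2 fold change 0.98 ± 0.244 SE, adjusted p = 0.00706 in edgeR). Psmc3 rose by 1.14 and Psmc2 and Psmc4 by 0.71 and 0.78 on the log2 scale, whereas Psmc1 and Psmc6 had log2 fold changes of 0.50 and -0.24 without a call. Psmd4, which encodes a ubiquitin receptor, rose by 1.12 (± 0.237 SE, adjusted p = 0.00242 in edgeR) and Psmd2, the scaffold that docks ubiquitin carriers, by 0.97 on the log2 scale. Psmd1, the largest base subunit, had 55.4, 46.0 and 52.6 CPM in TRAP and 36.7, 36.5 and 43.6 CPM in WCH; the groups did not overlap, but the log2 fold change of 0.40 did not pass (± 0.2 SE, adjusted p = 0.157 in edgeR). Of the lid genes, Psmd3, Psmd8 and Psmd13 rose, by 0.93, 0.61 and 1.03 on the log2 scale. Psmd8 had 63.6, 51.6 and 56.3 CPM in TRAP and 35.3, 32.7 and 44.4 CPM in WCH. Psmd6, Psmd7, Psmd11, Psmd12 and Psmd14 had log2 fold changes of 0.14 to 0.46 without a call.

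The gene that fell in TRAP was Psme4, which encodes the large nuclear activator of the core (chromosome 11, 30771726 to 30880361, plus strand of GRCm38). It had 19, 22.7 and 15.9 CPM in the TRAP libraries, against 38.8, 44.1 and 40.6 CPM in the WCH libraries. The groups were far apart, with a log2 fold change of -1.10 (± 0.223 SE, adjusted p = 0.00181 in edgeR). Of the 20 calls, 14 held whichever of the 12 libraries was left out. Psmc2 and Psmd8 each lost the call in 8 omissions (adjusted p up to 0.176 and 0.195), Psmc4 in 5 (up to 0.0904), Psme1 and Psmg4 in 4 each (up to 0.154 and 0.150) and Psmd3 in 2 (up to 0.0724). The omissions that ended these calls were of TRAP replicate 1, 2 or 3, of a WCH library or, for Psmc2 and Psmd8, also of an SNF library. The count of members that rose was 14 without TRAP replicate 3, WCH replicate 1 or WCH replicate 3, and 13 without WCH replicate 2. Over all 13404 genes, 969, 964, 760 and 669 rose in these omissions, in that order, against 1488 with all libraries.

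The promoters of Psmb5, Psmb6 and Psme4 are shown because all 3 hold the same short element. They were chosen for their calls in TRAP against WCH, where Psmb5 and Psmb6 rose and Psme4 fell. Whether the element has a part in these changes was not tested. The sequences are RefSeq promoters on GRCm38.p6, 250 bases before to 50 after the gene start, 5′ to 3′ on the strand of the gene. Capitals mark the match to TGACNNNGC, the core of the antioxidant response element, searched on both strands. They lie at chr14:54617946-54618245 (minus strand), chr11:70525107-70525406 (plus strand) and chr11:30771525-30771824 (plus strand), in this order.
Psmb5: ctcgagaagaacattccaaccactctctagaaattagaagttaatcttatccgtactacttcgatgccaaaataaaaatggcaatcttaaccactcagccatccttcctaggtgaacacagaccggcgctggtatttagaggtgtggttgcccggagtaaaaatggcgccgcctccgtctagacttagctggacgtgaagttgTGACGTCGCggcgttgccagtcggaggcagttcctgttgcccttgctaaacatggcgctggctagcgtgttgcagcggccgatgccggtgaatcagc
Psmb6: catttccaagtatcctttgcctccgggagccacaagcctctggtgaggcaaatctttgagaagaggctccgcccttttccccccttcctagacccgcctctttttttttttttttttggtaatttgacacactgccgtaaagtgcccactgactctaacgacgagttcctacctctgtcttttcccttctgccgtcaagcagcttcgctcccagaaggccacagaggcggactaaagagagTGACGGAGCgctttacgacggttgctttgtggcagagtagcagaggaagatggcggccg
Psme4: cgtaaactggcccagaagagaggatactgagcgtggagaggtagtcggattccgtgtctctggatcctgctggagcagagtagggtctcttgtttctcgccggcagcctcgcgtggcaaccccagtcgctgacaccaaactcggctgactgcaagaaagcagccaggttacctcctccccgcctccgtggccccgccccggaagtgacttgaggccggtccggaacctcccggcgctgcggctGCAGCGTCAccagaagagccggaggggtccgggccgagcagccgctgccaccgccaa
The element was found in 6 of 45 promoters of 42 members (13.3%), namely those of Psmb5, Psmb6, Psmc6, Psmd9, Psmd12 and Psme4, and in 12.4% of all 32851 promoters. In Psmb5 and Psmb6 the element reads forward, and in Psme4 it reads on the opposite strand. The letters CCAAT, also searched on both strands, were in 15 of the 45 promoters (33.3%) and in 37.4% of all. Of the 6 genes with the longer element, Psmc6, Psmd9 and Psmd12 had no call in TRAP against WCH. A match is a description of the letters and not a bound site.

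**Figure D2:**
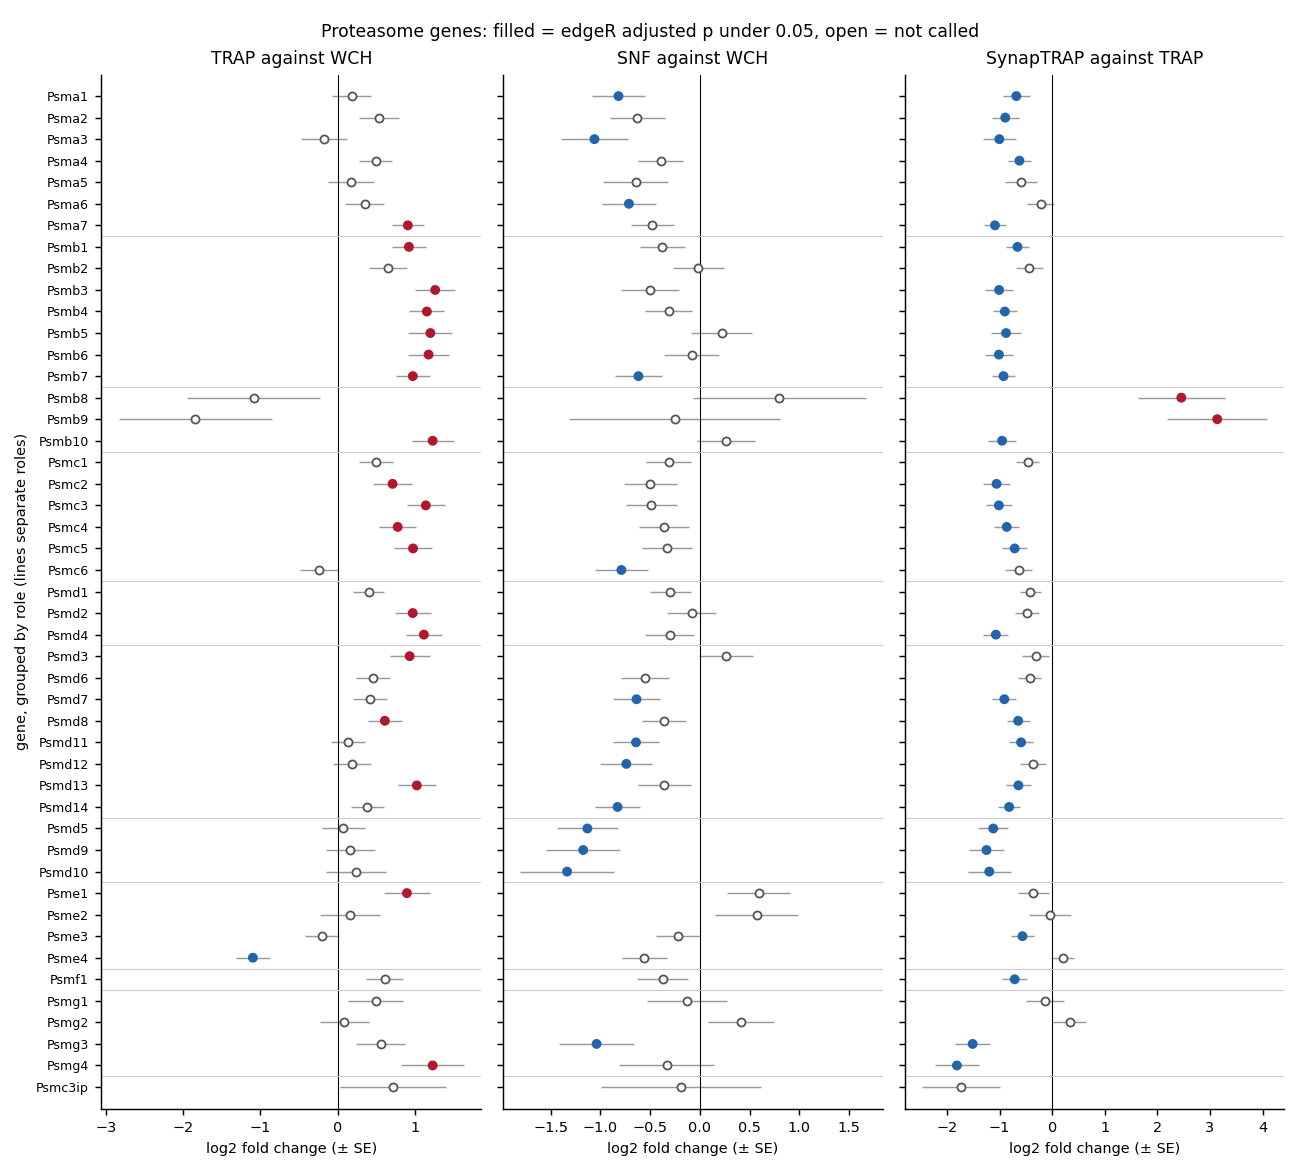
Log2 fold change with its SE for the 47 tested members, grouped by role from the alpha ring at the top to Psmc3ip at the bottom, in TRAP against WCH, SNF against WCH and SynapTRAP against TRAP. Filled red points rose and filled blue points fell at an edgeR adjusted p under 0.05, and open points were not called. Horizontal scales differ between the panels. The beta ring stands to the right in the first panel, the base chaperones Psmd5, Psmd9 and Psmd10 to the left in the second, and nearly all 26S subunits to the left in the third.

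In the synaptic band, proteasome genes were mostly lower than in the homogenate, by little more than genes in general. In SNF against WCH, 13 of 47 members fell (27.7%), where 16.5% of all genes did. None rose, where 20.6% of all genes did; none had a positive change at an unadjusted p under 0.05 in edgeR either, and DESeq2 called none higher. The excess of members that fell over all genes was not kept with relative log expression scaling, nor without SNF replicate 2 or WCH replicate 1. The median log2 fold change was -0.37 over the members and -0.25 over all genes. Every SNF library was below every WCH library for 28 members, against 33.6% of all genes, and above for 1 member, against 25.6% of all genes.

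The assembly chaperones of the 19S base, which bind the ATPases before the particle is complete, fell in all 3 cases. Psmd10, also known as gankyrin, had 2.88, 1.06 and 2.43 CPM in the SNF libraries, against 5.4, 3.51 and 7.24 CPM in the WCH libraries (log2 fold change -1.33 ± 0.47 SE, adjusted p = 0.0297 in edgeR). Psmd9 had 4.32, 3.19 and 3.41 CPM in SNF, against 8.80, 8.58 and 7.15 CPM in WCH (log2 fold change -1.17 ± 0.371 SE, adjusted p = 0.0168 in edgeR). Psmd5 (chromosome 2, 34849734 to 34874968, minus strand) had 10.6, 5.05 and 9.49 CPM in SNF, against 16.8, 18.9 and 19.4 CPM in WCH (log2 fold change -1.13 ± 0.305 SE, adjusted p = 0.00617 in edgeR). In each of the 3 genes all SNF libraries were below all WCH libraries, and SNF replicate 2 was the lowest. Without SNF replicate 2 all 3 calls were lost. Over all omissions the edgeR adjusted p reached 0.148 for Psmd10, 0.0804 for Psmd9 and 0.0519 for Psmd5. Psmd10 rested on 10, 4 and 10 counts in SNF, and it was not called with relative log expression scaling. Of the 7248 exon bases of Psmd9, 1849 overlap a noncoding RNA on the other strand. No source used here gives the strand setting of the counting, so reads in these bases cannot be assigned to either gene.

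The other members that fell in SNF were 3 alpha genes (Psma1, Psma3 and Psma6), the beta gene Psmb7, the ATPase gene Psmc6, 4 lid genes (Psmd7, Psmd11, Psmd12 and Psmd14) and Psmg3, a chaperone of core assembly. Their log2 fold changes were -1.06 to -0.62. Psmd14, the deubiquitinase of the lid (chromosome 2, 61711694 to 61800376, plus strand), had 14.4, 17.3 and 19 CPM in SNF, against 29.0, 29.9 and 31.2 CPM in WCH. These groups were well apart (log2 fold change -0.83 ± 0.226 SE, adjusted p = 0.0067 in edgeR), and Psmd14 was the member whose call held without any 1 of the 12 libraries. The number of members that fell depended on single libraries. It was 1 without SNF replicate 2 and 3 without WCH replicate 1. It was 5 without SNF replicate 1, WCH replicate 2 or WCH replicate 3, 6 without TRAP replicate 2, and 7 without SNF replicate 3, SynapTRAP replicate 1, TRAP replicate 1 or TRAP replicate 3. Scaling by relative log expression gave 4 and DESeq2 gave 6. Over all 13404 genes, the number that fell also dropped, from 2209 to 1159 without SNF replicate 2 and to 953 without WCH replicate 1. It was 1415 with relative log expression and 1502 with DESeq2. With relative log expression, and without SNF replicate 2 or WCH replicate 1, the share of members that fell was below that of all genes. With DESeq2 the 2 shares were close.

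Of the constitutive catalytic genes, Psmb7 was called in SNF against WCH and Psmb5 and Psmb6 were not. Psmb7 fell, at 19.6, 22.6 and 17.8 CPM in SNF, against 26.3, 30.4 and 35.2 CPM in WCH (log2 fold change -0.62 ± 0.233 SE, adjusted p = 0.0414 in edgeR). Its call held in 2 of the 12 omissions (edgeR adjusted p up to 0.150) and was lost with relative log expression scaling and with DESeq2. Exons of Psmb7 overlap 405 bases of Nek6 on the other strand. Psmb5 had 9.50, 13.3 and 8.76 CPM in SNF and Psmb6 had 28.5, 39.1 and 23.8 CPM. Both overlapped the WCH values above, with log2 fold changes of 0.22 and -0.08. Whether Psmb7 differs from them in its change was not tested.

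Capture from the band left no member with a call. In SynapTRAP against SNF, 0 of 47 members rose and 0 fell, where 2.29% and 1.79% of all genes did. At an unadjusted p under 0.05 in edgeR, 11 members were higher and 1 was lower, where 19.6% of all genes were under that threshold in either direction. DESeq2 called none higher and 1 lower, Psme3, where it called 357 higher and 634 lower of all 13404 genes. The log2 fold change was positive for 39 members, with a median of 0.28, against 0.03 for all genes. The smallest adjusted p among positive changes was that of Psma6, an alpha gene, with 35.1, 32.9 and 18.4 CPM in SynapTRAP and 14.4, 17.8 and 16.3 CPM in SNF (log2 fold change 0.84 ± 0.275 SE, adjusted p = 0.0862 in edgeR). SynapTRAP replicate 3 was nearest to SNF. Without that library 4 members rose, Psma6, Psmb1, Psmc5 and Psmd2, where 369 of all 13404 genes did. Psma6 alone rose when no filter on low counts was applied, where 547 of 20380 genes did. The 7 other members that did not overlap upwards included Psmb3, Psmb7 and Psmd13, at log2 fold changes of 0.76, 0.67 and 0.74. Non-overlap upwards was seen for 8 members, against 12.4% of all genes.

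Most proteasome genes were lower in the capture from the band than in that from the homogenate. In SynapTRAP against TRAP, 29 of 47 members fell (61.7%), where 18.1% of all genes did, and 2 rose (4.26%), where 21.6% of all genes did. The median log2 fold change was -0.68 over the members and -0.02 over all genes, and all 31 tested genes of the constitutive core and the 19S particle had a negative value. Those that fell were 5 of 7 alpha genes, 6 of 7 beta genes, 4 of 6 ATPase genes, 1 of 3 other base genes and 5 of 8 lid genes. All 3 base chaperones, the inhibitor gene Psmf1, the activator gene Psme3, Psmb10 and 2 of 4 core chaperones fell as well. SynapTRAP libraries were all below TRAP libraries for 32 members, against 21.4% of all genes, and above for 2 members, against 21.4% of all genes. Of the 29 members that fell, 16 were also higher in TRAP against WCH. Both contrasts use the TRAP libraries, so their results are not independent.

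Among the 26S subunits the largest decrease was that of Psma7, with 37.6, 38.6 and 26.1 CPM in SynapTRAP, against 77.9, 68.6 and 71.8 CPM in TRAP (log2 fold change -1.09 ± 0.211 SE, adjusted p = 0.000376 in edgeR). The catalytic genes also fell. Psmb5 had 14.6, 10.1 and 8.99 CPM, Psmb6 had 44.6, 33.0 and 30.7 CPM and Psmb7 had 30.6, 38.0 and 26.1 CPM in SynapTRAP, each library below every TRAP library given above. Their log2 fold changes were -0.88, -1.01 and -0.93. Psmc5 had 53.3, 59.1 and 30.5 CPM in SynapTRAP, without overlap with TRAP, and fell by 0.71 on the log2 scale. Psmd8 had 40.5, 41.0 and 27.7 CPM in SynapTRAP and fell by 0.65 on the log2 scale. Psmd1 had 34.4, 43.6 and 37.3 CPM in SynapTRAP and a log2 fold change of -0.42 without a call. Psma5, Psma6, Psmb2, Psmc1, Psmd2, Psmd3, Psmd6 and Psmd12 were likewise not called, at log2 fold changes of -0.59 to -0.22.

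Of the 31 calls, 17 held without any 1 of the 12 libraries, among them those of Psma7, Psmb6, Psmb7, Psmc2, Psmc3, Psmd4, Psmd14 and Psmg4. Psmb10 and Psmb5 lost theirs without TRAP replicate 3 (Psmb5 also without SynapTRAP replicate 2), and Psmc5 lost its call without SynapTRAP replicate 3 or TRAP replicate 3 (adjusted p up to 0.0502, 0.0993 and 0.111). Omission of a SynapTRAP or TRAP library also ended the calls of Psma1, Psma3, Psma4, Psmb1, Psmd8, Psmd11 and Psmd13, as did WCH replicate 2 for Psmd11 and Psmd13, with adjusted p up to 0.186. With the replicate number as a block, Psmc6 and Psmc3ip also fell, by 0.66 and 1.94 on the log2 scale (edgeR adjusted p = 0.0393 and 0.0132), against -0.64 and -1.73 without a call in the fit of group means (adjusted p = 0.0516 and 0.0672). Fitted on these 6 libraries alone, 17 members fell, where 1458 of the 12582 genes then tested did, against 2432 of 13404 in the fit of all groups. SynapTRAP and SNF libraries also had more astrocyte marker RNA than TRAP and WCH libraries, and the part of this in the member changes was not tested.

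SNF against WCH and SynapTRAP against TRAP use different libraries but are not independent, since SNF is the input of SynapTRAP and their same-numbered libraries deviate together. Of the 13 members that fell in the band input, 10 (76.9%) also fell in the band capture, and these made up 34.5% of the 29 that fell there. Over all genes, 46.0% of the 2209 genes that fell in SNF were among those that fell in SynapTRAP, or 41.8% of those 2432. The share among the members is to be read against the 61.7% of all tested members that fell in SynapTRAP against TRAP. The 10 members were Psma1, Psma3, Psmb7, Psmd5, Psmd7, Psmd9, Psmd10, Psmd11, Psmd14 and Psmg3.

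The inducible subunits, which replace the constitutive catalytic subunits in the immunoproteasome after interferon and are abundant in immune cells, did not move together. Psmb8 and Psmb9 lie 9956 bases apart on chromosome 17 (34197721 to 34201454, plus strand, and 34181987 to 34187764, minus strand), and they were the 2 members higher in SynapTRAP than in TRAP. Both rested on few reads. Psmb8 had 25, 25 and 5 counts in SynapTRAP, 0, 3 and 7 in TRAP, 5, 3 and 4 in SNF and 12, 4 and 7 in WCH. Psmb9 had 16, 11 and 7 counts in SynapTRAP, 1, 2 and 1 in TRAP, 0, 3 and 1 in SNF and 3, 12 and 2 in WCH. In CPM, the lowest SynapTRAP library exceeded the highest TRAP library in both genes, at 0.737 against 0.600 for Psmb8 and 0.835 against 0.181 for Psmb9.

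Summed over the libraries and corrected for library size, Psmb8 was 6.35 times as frequent in SynapTRAP as in TRAP (95% exact interval for counting error 3.20 to 14, from 55 and 10 counts) and Psmb9 9.81 times (3.50 to 38.1, from 34 and 4 counts). The fitted log2 fold changes were 2.45 for Psmb8 (± 0.833 SE, adjusted p = 0.0227 in edgeR) and 3.14 for Psmb9 (± 0.949 SE, adjusted p = 0.0118 in edgeR). The call of Psmb8 was lost without SynapTRAP replicate 1 or 2 or TRAP replicate 1 or 2, with log2 fold changes of 1.80 to 3.53 over all omissions, while that of Psmb9 held. The omissions kept the genes of the full fit and did not repeat the filter on low counts. Psmb9 passed that filter mainly through SynapTRAP, the group where it was then called higher, so the call that held is weak support. In the fit of SynapTRAP and TRAP alone both genes were removed by the filter on low counts. Against SNF neither gene was called, at log2 fold changes of 0.57 for Psmb8 and 1.55 for Psmb9 (edgeR adjusted p = 0.766 and 0.419). The sum of 10 microglial markers was 194 to 421 CPM in SynapTRAP, 24.6 to 52.2 CPM in TRAP, 315 to 643 CPM in SNF and 80.4 to 98.9 CPM in WCH, so it was also higher in SynapTRAP than in TRAP, and its part in the rise of both genes was not tested. Exons of Psmb8 and Psmb9 overlap antisense neighbours by 498 and 212 bases, the second being Tap1, a peptide transporter gene of antigen presentation.

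As a share of reads of the 2 inducible genes and their constitutive counterparts Psmb5 and Psmb6, Psmb8 and Psmb9 made up 5.26%, 5.96% and 4.27% in SynapTRAP, 0.0917%, 0.654% and 0.493% in TRAP, 3.65%, 2.96% and 3.6% in SNF and 2.90%, 2.57% and 1.83% in WCH. The shares in SynapTRAP lay above those of the other groups and the shares in TRAP below. These shares also move with Psmb5 and Psmb6, which were higher in TRAP than in WCH and lower in SynapTRAP than in TRAP. In addition, 88.4% of the Psmb5 transcript has a near-identical copy elsewhere, so its count is uncertain. Those of SNF rest on 5, 6 and 5 counts, and their 95% Wilson intervals, which cover counting error only, were 1.57% to 8.26%, 1.36% to 6.30% and 1.55% to 8.14%, so SynapTRAP and SNF cannot be told apart at this depth. The intervals were 3.90% to 7.06%, 4.34% to 8.14% and 2.46% to 7.31% in SynapTRAP, against 0.0162% to 0.518%, 0.279% to 1.52% and 0.250% to 0.969% in TRAP. Psmb10, the third inducible subunit (chromosome 8, 105935735 to 105938444, minus strand), moved with the constitutive genes. It had 12.4, 8.42 and 10.9 CPM in SynapTRAP, 16.3, 16.8 and 28.3 CPM in TRAP, 12.7, 9.57 and 9.24 CPM in SNF and 7.49, 8.65 and 9.99 CPM in WCH. It rose in TRAP against WCH by 1.23 (± 0.272 SE, adjusted p = 0.00318 in edgeR) and fell in SynapTRAP against TRAP by 0.95 on the log2 scale (± 0.271 SE, adjusted p = 0.00792 in edgeR). Both of these contrasts use the TRAP libraries.

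**Figure D3:**
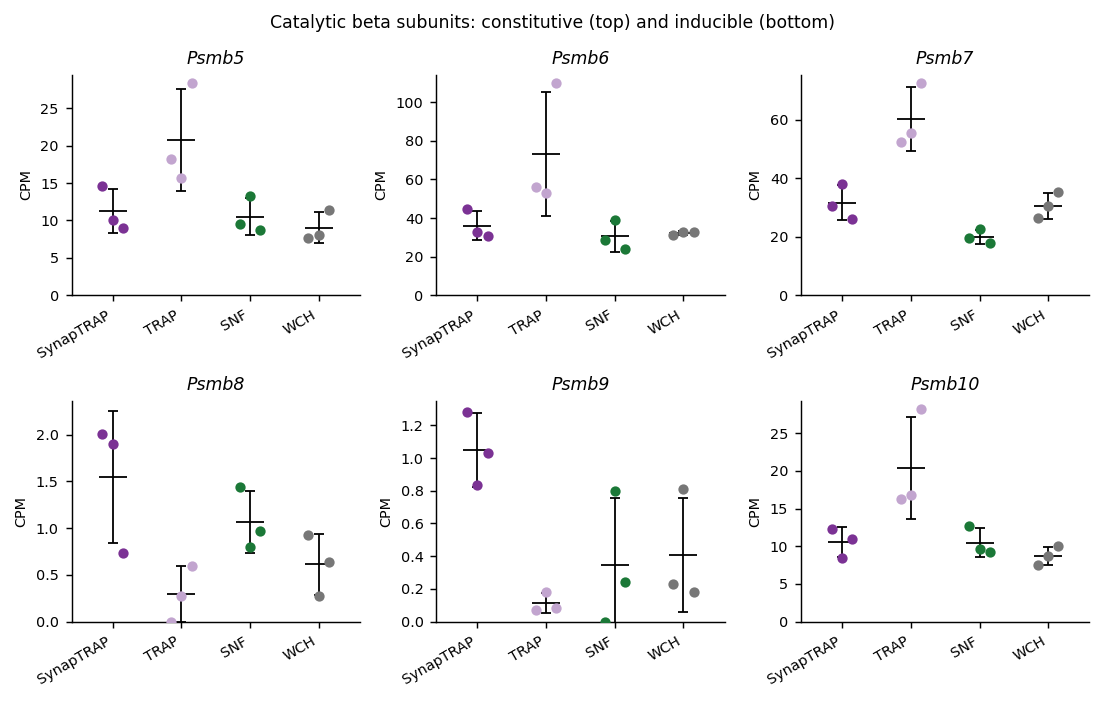
CPM of the constitutive catalytic genes Psmb5, Psmb6 and Psmb7 (top) and of the inducible genes Psmb8, Psmb9 and Psmb10 (bottom) in each of the 3 libraries per group, with the mean (long dash) and SD (bar). TRAP is highest for the top row and Psmb10. For Psmb8 and Psmb9, which stay at or under 2.01 CPM, SynapTRAP is above TRAP.

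The alternative activators of the core each had a pattern of their own. Psme1, a subunit of the interferon-inducible activator ring, had 6.50, 13.1 and 13.0 CPM in SynapTRAP, 13.3, 9.96 and 18.2 CPM in TRAP, 9.78, 13.3 and 10.5 CPM in SNF and 5.87, 8.31 and 8.07 CPM in WCH. Its lowest mean was that of WCH, and it rose in TRAP against WCH (log2 fold change 0.90 ± 0.301 SE, adjusted p = 0.036 in edgeR). In SNF against WCH its log2 fold change of 0.59 was not called (edgeR adjusted p = 0.146), although all SNF libraries were higher. When SNF and WCH were fitted alone, it was called. Psme2, its partner in the ring, had 3.13, 2.35 and 2.95 CPM in SynapTRAP, 3.26, 2.81 and 2.57 CPM in TRAP, 4.60, 4.79 and 2.19 CPM in SNF and 3.32, 2.30 and 2.11 CPM in WCH. Those groups overlapped in every comparison, and no contrast called Psme2, though 82.5% of its transcript has a near-identical copy in Psme2b and its level is uncertain.

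Psme3, a nuclear activator, had its lowest mean in SynapTRAP, at 20.4, 26.5 and 22.4 CPM, against 26.4, 41.3 and 35.0 CPM in TRAP, 32.5, 33.0 and 36.0 CPM in SNF and 37.7, 41.8 and 38.6 CPM in WCH. It fell in SynapTRAP against TRAP (log2 fold change -0.57 ± 0.217 SE, adjusted p = 0.0416 in edgeR), with slight overlap of the groups, and 7 of the 12 omissions ended this call (adjusted p up to 0.133): SynapTRAP replicates 1 and 3, TRAP replicates 2 and 3, SNF replicate 1 and WCH replicates 2 and 3. Psme4 had 21.9, 17.8 and 26.7 CPM in SynapTRAP and 30.2, 24.7 and 28.9 CPM in SNF. It was thus highest in the homogenate, and the log2 fold change of -0.56 in SNF against WCH was close to the threshold (± 0.226 SE, adjusted p = 0.0561 in edgeR). Psmf1, the inhibitor that binds the core, had 12.4, 18.1 and 12.2 CPM in SynapTRAP, 25.4, 19.7 and 25.2 CPM in TRAP, 14.7, 10.1 and 10.9 CPM in SNF and 15.7, 16.2 and 14.3 CPM in WCH. It fell in SynapTRAP against TRAP by 0.71 on the log2 scale (± 0.241 SE, adjusted p = 0.0223 in edgeR), and the call was lost without SynapTRAP replicate 1 or 3 or TRAP replicate 1 (adjusted p up to 0.0738).

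The assembly chaperones were among the members with the largest differences between the captures. Psmg4 (chromosome 13, 34162964 to 34178173, plus strand), a chaperone of the core, had 0.882, 2.43 and 2.36 CPM in SynapTRAP, 5.57, 8.15 and 6.0 CPM in TRAP, 3.17, 1.33 and 2.19 CPM in SNF and 2.39, 2.10 and 3.94 CPM in WCH. The TRAP libraries were the highest of the 12. Psmg4 fell in SynapTRAP against TRAP (log2 fold change -1.81 ± 0.424 SE, adjusted p = 0.00193 in edgeR) and rose in TRAP against WCH (log2 fold change 1.23 ± 0.405 SE, adjusted p = 0.0329 in edgeR).

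Psmg3, its partner, had 3.29, 2.58 and 2.65 CPM in SynapTRAP, 7.82, 8.70 and 7.97 CPM in TRAP, 1.73, 1.86 and 4.38 CPM in SNF and 5.25, 5.27 and 6.14 CPM in WCH. It was lower in both band groups than in both homogenate groups, and fell in SynapTRAP against TRAP (log2 fold change -1.51 ± 0.333 SE, adjusted p = 0.00117 in edgeR) and in SNF against WCH (log2 fold change -1.04 ± 0.374 SE, adjusted p = 0.0334 in edgeR), where 9 omissions ended the call (adjusted p up to 0.145). Exons of Psmg3 share 280 bases with a gene on the same strand. Psmg1 and Psmg2, which form the other chaperone pair of the core, were called nowhere. Psmg2 had 9.95, 14 and 6.34 CPM in SynapTRAP, 9.11, 9.33 and 5.82 CPM in TRAP, 8.63, 14.6 and 7.30 CPM in SNF and 6.95, 8.31 and 7.61 CPM in WCH, with overlap throughout.

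The base chaperones were low in SynapTRAP as in SNF. Psmd9 had 3.85, 2.28 and 5.75 CPM in SynapTRAP, against 12.5, 7.16 and 7.79 CPM in TRAP, and fell by 1.25 on the log2 scale (± 0.337 SE, adjusted p = 0.00558 in edgeR). Psmd10 had 2.73, 1.75 and 3.98 CPM in SynapTRAP, against 9.24, 4.53 and 5.05 CPM in TRAP, and fell by 1.20 on the log2 scale (± 0.409 SE, adjusted p = 0.0234 in edgeR). Psmd5 had 11, 9.71 and 5.60 CPM in SynapTRAP, against 21.8, 21.1 and 15.1 CPM in TRAP, and fell by 1.12 on the log2 scale (± 0.285 SE, adjusted p = 0.00365 in edgeR). None of the SynapTRAP values reached a TRAP value in the 3 genes. The call of Psmd10 was lost without SynapTRAP replicate 1 or 2 or TRAP replicate 1 (adjusted p up to 0.144). Psmc3ip, the recombination gene, had no call in the fit of group means and had 0.241, 1.29 and 0.295 CPM in SynapTRAP, 1.43, 3.90 and 1.20 CPM in TRAP, 0.575, 2.39 and 0.487 CPM in SNF and 1.16, 2.16 and 0.550 CPM in WCH. Replicate 2 was its highest library in every group.

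**Figure D4:**
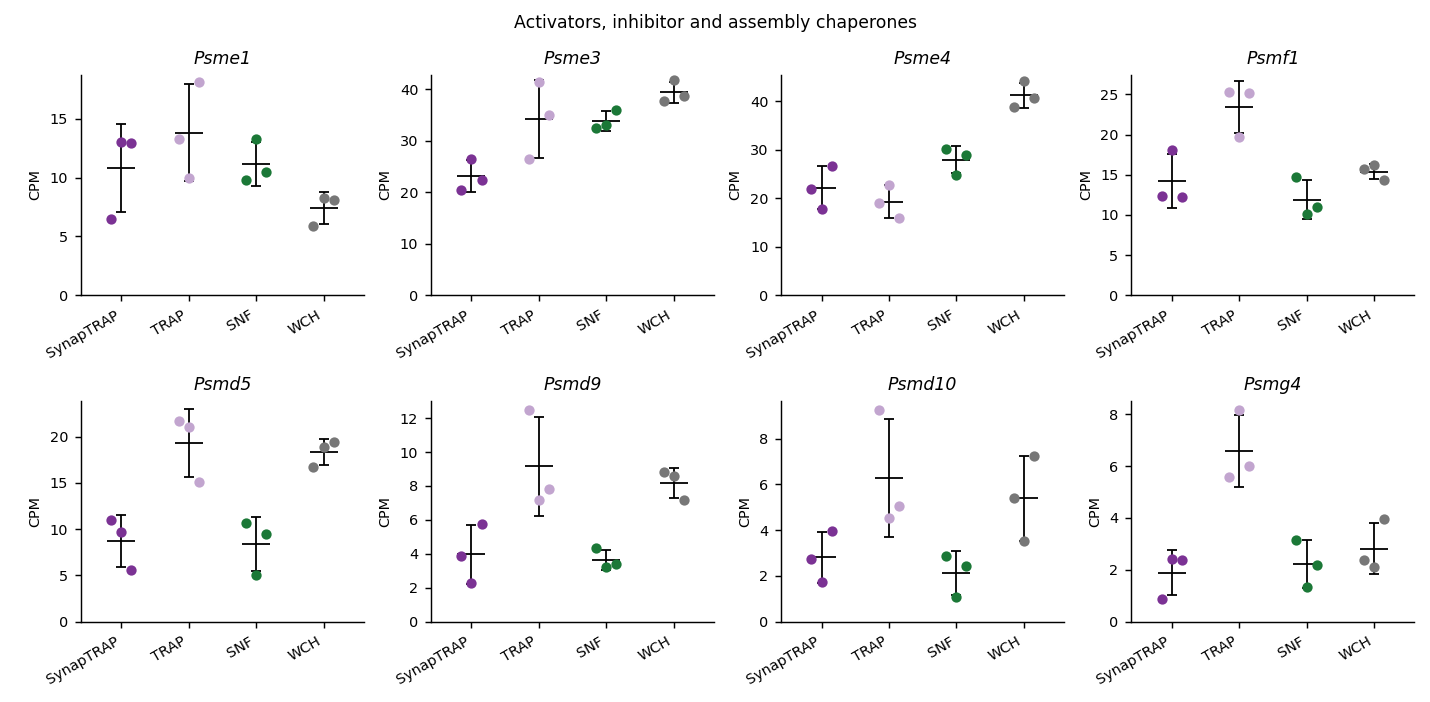
CPM of the activators Psme1, Psme3 and Psme4, the inhibitor Psmf1 and the assembly chaperones Psmd5, Psmd9, Psmd10 and Psmg4 in each of the 3 libraries per group, with the mean (long dash) and SD (bar). Psme4 is highest in WCH, and the means of the 3 base chaperones are lower in SynapTRAP and SNF than in TRAP and WCH.

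The effect of capture in the band minus that in the homogenate was tested as an interaction. No member was called, 0 higher and 0 lower, where 0.507% and 0.358% of all genes were. At an unadjusted p under 0.05 in edgeR, 2 members were higher, Psmb9 at 3.39 and Psme4 at 0.76 on the log2 scale, and 6 were lower. The members' share was close to the 17.3% of all genes under that threshold in either direction. DESeq2 called none higher and 1 lower, Psmb10, at -1.22 in edgeR (± 0.397 SE, adjusted p = 0.119 in edgeR). Of all 13404 genes, DESeq2 called 174 higher and 401 lower. Psmb10 was also called when TRAP replicate 1 was left out. The rise of 19 members in TRAP and of none in SynapTRAP is therefore not shown to be a difference between the captures.

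Other genes of the pathway were taken from a list of 35 proteasome partners, shuttles and ubiquitin sources, of which 34 were in the files and 32 were tested. In TRAP against WCH 6 of the 32 rose and 0 fell, where 11.1% and 10.9% of all genes did. In SynapTRAP against SNF 1 rose and 0 fell, where 2.29% and 1.79% of all genes did. In SNF against WCH 1 rose and 10 fell, where 20.6% and 16.5% of all genes did. In SynapTRAP against TRAP 1 rose and 12 fell, where 21.6% and 18.1% of all genes did. Their median log2 fold change was 0.29 in TRAP against WCH, 0.18 in SynapTRAP against SNF, -0.47 in SNF against WCH and -0.51 in SynapTRAP against TRAP.

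Nfe2l1, the transcription factor that raises proteasome genes when proteasome activity is short, was the listed gene that rose in SNF. It had 167, 171 and 125 CPM in SynapTRAP, 78.1, 104 and 99.6 CPM in TRAP, 199, 219 and 154 CPM in SNF and 83.4, 75.2 and 82.7 CPM in WCH. It rose in SNF against WCH (log2 fold change 1.25 ± 0.221 SE, adjusted p = 0.000159 in edgeR) and in SynapTRAP against TRAP (log2 fold change 0.72 ± 0.218 SE, adjusted p = 0.0116 in edgeR), and in both the band libraries were all higher. Zfand5, a zinc finger protein that binds the proteasome, had 25.9, 34.6 and 35.8 CPM in SNF, against 60.1, 63.8 and 75 CPM in WCH, and fell by 1.04 on the log2 scale (± 0.239 SE, adjusted p = 0.00169 in edgeR). Sem1, the small lid subunit whose symbol lies outside the rule, had 9.22, 8.27 and 15.8 CPM in SynapTRAP, against 22.5, 36.1 and 31.9 CPM in TRAP, and fell by 1.46 on the log2 scale (± 0.301 SE, adjusted p = 0.000656 in edgeR). Zfand2b, another zinc finger partner, fell there by 1.44 on the log2 scale (± 0.346 SE, adjusted p = 0.00238 in edgeR), with 3.21, 3.34 and 3.10 CPM in SynapTRAP, against 11, 5.80 and 9.34 CPM in TRAP.

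Uba1, the enzyme that activates ubiquitin, had 270.4, 231 and 285 CPM in TRAP, against 118, 110 and 112 CPM in WCH (log2 fold change 1.21 ± 0.229 SE, adjusted p = 0.00103 in edgeR). All TRAP libraries were far above WCH. Ubqln4, a ubiquitin shuttle, was the listed gene that rose in SynapTRAP against SNF, with 58.4, 35.3 and 59.9 CPM in SynapTRAP, against 34.2, 25.8 and 22.6 CPM in SNF (log2 fold change 0.89 ± 0.238 SE, adjusted p = 0.0352 in edgeR).

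To rank the levels of single subunits, CPM were divided by the length of the exons in kilobases, since the sums, balances and shares above carry no correction for length. Over the 31 tested genes of the constitutive core and the 19S particle, the levels spread widely. With the union of annotated exons, Psmc5 was highest in WCH at 28.6 CPM per kilobase and Psma3 lowest at 2.54, around a median of 8.83. In TRAP, Psmc5 was at 56.2, Psma3 at 2.26 and the median at 13.9 CPM per kilobase. With the length of the longest transcript the first place went to Psmb6 in TRAP (75.6 CPM per kilobase) and to Psmb2 in WCH (38.3), and Psma3 was again last in every group. Near-identical copies in other annotated transcripts cover 23.4% of Psma3, 76.5% of Psma5 and 88.4% of Psmb5, so these levels are uncertain, since reads that fit several places may have been left out.

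Few members appear in the authors' deposited tables of selected genes. The authors' deposited table of band against homogenate is named as one of genes enriched in the band, so members lower there would not be listed. Among its 3508 genes are Psme2, Psmg2 and Psme1 at log2 fold changes of 0.98, 0.73 and 0.76, with false discovery rates of 0.0646, 0.0828 and 0.10. The authors' deposited table of 275 somatic translation candidates lists Psmd14, Psmg3 and Psmd7. Their log2 fold changes by gradient column were -0.80, -1.50 and -0.62 there, with false discovery rates of 0.00796, 0.00438 and 0.0622. By pull-down they were 0.44, 0.61 and 0.47, with false discovery rates of 0.0881, 0.0746 and 0.0932. The authors' deposited table of 109 local translation candidates lists 0 members.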

How the data were processed

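RNA sequencing counts of 12 mouse cortex libraries were analysed. The authors deposited 1 whole-number count per gene and library, for 29879 genes and 5 summary lines that held 19.3% to 58.3% of a library and were left out. The tools were STAR, Bowtie2, HTSeq and edgeR, per the submitters' processing notes, and no source used here gives versions, genome build, strand setting or counting mode. Gene lists deposited by the authors give log2 fold changes, p-values, false discovery rates and a likelihood ratio score, per the file headers. Beyond the names of the lists, how their genes were selected is not stated.

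Symbols and coordinates came from GENCODE M21 (GRCm38, counted from 1), which named 28842 identifiers. The members and lists were chosen with earlier results of these data known. All libraries were fitted together as 4 group means in edgeR 4.0.16 (R 4.3.3), with trimmed mean of M-values scaling, the default filter (13404 genes kept) and the robust quasi-likelihood test at an adjusted p under 0.05; CPM use the same scaling. Values in every library are given for the 3 called members with the largest positive and negative change in each contrast, the member with the most reads of each role, and all catalytic and inducible subunits, activators and the inhibitor, and for the 2 other pathway genes with the largest change, of which 1 is not reported here; further members given in this way (Psmd14, Psma6) were chosen after their values were seen. Near copies were stretches of at least 100 bases at 98% identity found with blastn 2.17.0. Intervals are at 95% and cover only counting error; no molecular identifiers are described in the labels.

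Replicate numbers are shared by the groups in the labels, without a stated meaning. Deviations of same-numbered libraries from their group means correlated at 0.104, 0.144 and 0.106 between SynapTRAP and TRAP and at 0.218, 0.293 and 0.378 between SynapTRAP and SNF, so the numbers were taken to pair those groups; they were not over 0.1 in every pair for TRAP and WCH or SNF and WCH. Alternatives were DESeq2 1.42.0, other scalings and filters, a replicate block, fits of single contrasts and omission of each library. The omissions used the genes kept in the full fit.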

Additional observations from a re-analysis of the deposited data

How the results depend on the processing

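The members' median log2 fold change relative to that of all genes kept its sign under the other scalings, filters and tests that used all libraries of a contrast. It was 0.55 to 0.58 in TRAP against WCH, -0.14 to -0.08 in SNF against WCH, 0.24 to 0.30 in SynapTRAP against SNF, -0.68 to -0.60 in SynapTRAP against TRAP and -0.44 to -0.31 for the interaction. Scaling by total gene counts, mitochondrial RNA included, put the all-gene median at 0.56, -2.60, 1.98, -1.0 and 1.46 in that order of contrasts, against -0.01, -0.25, 0.03, -0.02 and 0.07, and the share of all-gene calls that were higher at 92.5%, 0.0961%, 99.95%, 8.52% and 100%, against 50.5%, 55.5%, 56.1%, 54.4% and 58.6%. It gave 0 members lower in TRAP against WCH, 46 lower in SNF against WCH, 46 higher in SynapTRAP against SNF, 0 higher in SynapTRAP against TRAP and 14 higher in the interaction. It turned the sign of 51 member values, 31 of them in the interaction, none of which was called before, and 16 of the 51 were then called. Of these, in SNF against WCH the values were -2.08 for Psmb5, Psmb10 and Psmd3, -1.73 for Psme1, -1.81 for Psme2 and -1.91 for Psmg2. In SynapTRAP against SNF the values were 1.77 for Psma3, 1.88 for Psmc6 and Psme1, 1.49 for Psme2, 1.44 for Psme3, 1.58 for Psme4 and 1.72 for Psmg4. The rest of the 16 were -0.85 for Psme4 in SynapTRAP against TRAP and 1.30 for Psmc1 and 1.28 for Psmd1 in the interaction.

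Among the other settings, members lower in SNF against WCH numbered 4 with relative log expression scaling and 6 with DESeq2, against 13. Over all genes, 55.5% of the calls of that contrast were higher, against 67.7% and 67.2% with these settings. In SynapTRAP against SNF, no filter gave 1 higher and DESeq2 1 lower, and the interaction had 1 lower with DESeq2; over all genes, 56.1% of the calls in SynapTRAP against SNF were higher, against 33.6% and 36.0% with relative log expression and DESeq2, and 58.6% in the interaction, against 33.6% and 30.3%. The cause of these shifts was not tested. In SynapTRAP against TRAP, 1 member was higher without mitochondrial counts and 0 in the fit of 2 groups, since Psmb9, or both genes, failed the filter; the fit of 2 groups gave 17 lower, and 1 higher in SNF against WCH. For the interaction that fit could not be made. With the replicate block 31 members fell in SynapTRAP against TRAP, against 29, and no other member changed its call in a paired contrast.

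Leaving out each library gave 13 to 21 higher and 1 lower in TRAP against WCH, 0 higher and 1 to 14 lower in SNF against WCH, 0 to 4 higher and 0 lower in SynapTRAP against SNF, 1 to 2 higher and 22 to 30 lower in SynapTRAP against TRAP, and 0 higher and 0 to 1 lower in the interaction. Over all 13404 genes, these omissions gave 669 to 1802 higher in TRAP against WCH and 953 to 2642 lower in SNF against WCH. In SynapTRAP against TRAP they gave 1972 to 2636 lower. SNF libraries, with 2410 to 2903 counts over all members, held the fewest counts of the member genes.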
